A study of Homo sapiens with 6 samples.

Results

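LSD1 peaks that were found both with an LSD1 inhibitor and with vehicle, and that lay on chromatin carrying H3K4me2 and H3K4me1, are described here. They are the peaks of the LSD1 list with DMSO that shared at least 1 bp with an LSD1 peak of the inhibitor library, with an H3K4me2 interval and with an H3K4me1 interval. The sites were thus selected on the presence of these overlaps. The rule took 11370 of 45188 peaks (25.2% of the list), called retained both-mark sites below. All positions are on hg19, as in the deposited lists.

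Every library came from NCI-H526, a small cell lung cancer line that the labels class as epithelial. LSD1 was mapped by ChIP-seq in cells given GSK552 and in cells given DMSO, the vehicle, and H3K4me2 and H3K4me1 were mapped in cells given DMSO. The protocol names GSK2879552 at 1 µM for 24 hours, taken here to describe the cells given GSK552. Each of the 6 samples was a group of 1 library, and the 2 inputs were not used here. Without replicates no test between conditions can be made, so differences are between single libraries or between classes of peaks in 1 library. Intervals given are 95% intervals that cover counting error only. The sources used here do not state sequencing depth. The cell type could not be checked against marker genes, because no gene annotation of this build was used.

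LSD1 (KDM1A) is a flavin-dependent demethylase that acts on lysine 4 of histone H3 with 1 or 2 methyl groups, usually within a repressive complex with CoREST and histone deacetylases. H3K4me1 is the usual mark of enhancers, and H3K4me2 is carried by enhancers and by the flanks of active promoters. Promoters with strong H3K4 methylation tend to carry H3K4me1 at their edges and not at their middle, while enhancers carry it close to the factor-bound site. GSK2879552 inactivates LSD1 through its flavin cofactor, and a peak that persists with it shows where the protein was still recovered, not whether it was active.

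For each peak the authors' caller gave a fold enrichment over background and a q-value, a p-value adjusted for multiple tests. Peaks were ranked within their list by the score, which follows −log10 q and is larger for a stronger peak. The presence of each overlap chose these sites, so those shares are a description and carry no test. Of all LSD1 peaks with DMSO, 63.2% were overlapped by an inhibitor peak, 50.4% by H3K4me2, 41.5% by H3K4me1 and 31.7% by both marks. LSD1 peaks on both marks were found again with inhibitor in 79.4% of cases (11370 of 14327). The share was 77.5% for peaks on H3K4me2 alone, 58.1% for peaks on H3K4me1 alone and 44.8% for peaks on neither mark. The rank within the DMSO list moved with this, so the shares were also read within score deciles. In the strongest decile 98.8% of both-mark peaks and 92.4% of unmarked peaks were retained. In the sixth of 10 deciles, the shares were 79.8% for both-mark peaks, 81.7% with H3K4me2 alone, 59.0% with H3K4me1 alone and 47.8% without a mark. In the weakest decile they were 40.2%, 49.9%, 22.2% and 16.5% for the same 4 classes. At matched score the share was higher with both marks in the 2 strongest deciles and with H3K4me2 alone in the other 8. Some of these gaps lay within counting error, as with 93.9% and 93.8% in decile 9, where 10 is the strongest. In the weakest decile the intervals were apart, at 36.8 to 43.7% and 46.1 to 53.7%. Peak width was not matched.

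The retained both-mark sites made up 38.9% of the sequence under LSD1 peaks with DMSO, at 10.96 Mb, and 52.6% of the 1000 highest-scoring peaks. They were overlapped by 11774 inhibitor peaks, of which 10253 (87.1%) lay on both marks themselves. They touched 15583 H3K4me2 intervals, 19.1% of that list, and 14641 H3K4me1 intervals, 15.5% of that list. A total of 678 sites shared their H3K4me2 interval with another such site and 1182 (10.4%) shared an H3K4me1 interval, so the sites are not all independent.

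Little separated the edge of the rule from its surroundings. The median of the smallest of a site's 3 overlaps was 249 bp. At 121 sites (1.06%) it was 10 bp or less, with a median width of 416 bp and a median fold of 3.75. Another 136 peaks missed the rule by 10 bp or less, with a median width of 434 bp and a median fold of 3.84. Of these, 72 lacked H3K4me1, 52 lacked H3K4me2 and 14 lacked an inhibitor peak, where a peak could lack more than 1 of them.

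Retained both-mark sites were wide. Their median width with DMSO was 787 bp (773 to 801), with 10% below 275 bp and 10% above 1859 bp. Retained peaks on H3K4me2 alone had a median of 628 bp, those on H3K4me1 alone 468 bp and those on neither mark 381 bp. Both-mark peaks that were not found with inhibitor had a median of 439 bp. A wider peak meets an overlap rule more easily, so part of this order is built into the rule. A width of 2000 bp or more was reached by 908 sites, or 7.99% of them, against 2.68% of all LSD1 peaks with DMSO.

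In the inhibitor library the overlapping peak had a median width of 685 bp (673 to 700), and it was the wider of the pair at 43.1% of sites (42.2 to 44.1%). On H3K4me2 alone the inhibitor peak was the wider one more often, at 57.2% of retained peaks, a difference of −14.0 points (−15.5 to −12.5) for the both-mark sites. For retained peaks on H3K4me1 alone and on neither mark the shares were 42.4% and 43.7%, and the differences of 0.756 points (−1.36 to 2.86) and −0.572 points (−1.99 to 0.843) had intervals that include 0. The centre of an LSD1 peak is here the midpoint of its interval, not a summit. The centres of the 2 LSD1 peaks lay a median of 182 bp apart. At 551 sites (4.85%) the DMSO peak was overlapped by 2 or more inhibitor peaks, against 2.20% of retained peaks on H3K4me2 alone and 0.597% of those on neither mark.

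**Figure D1:**
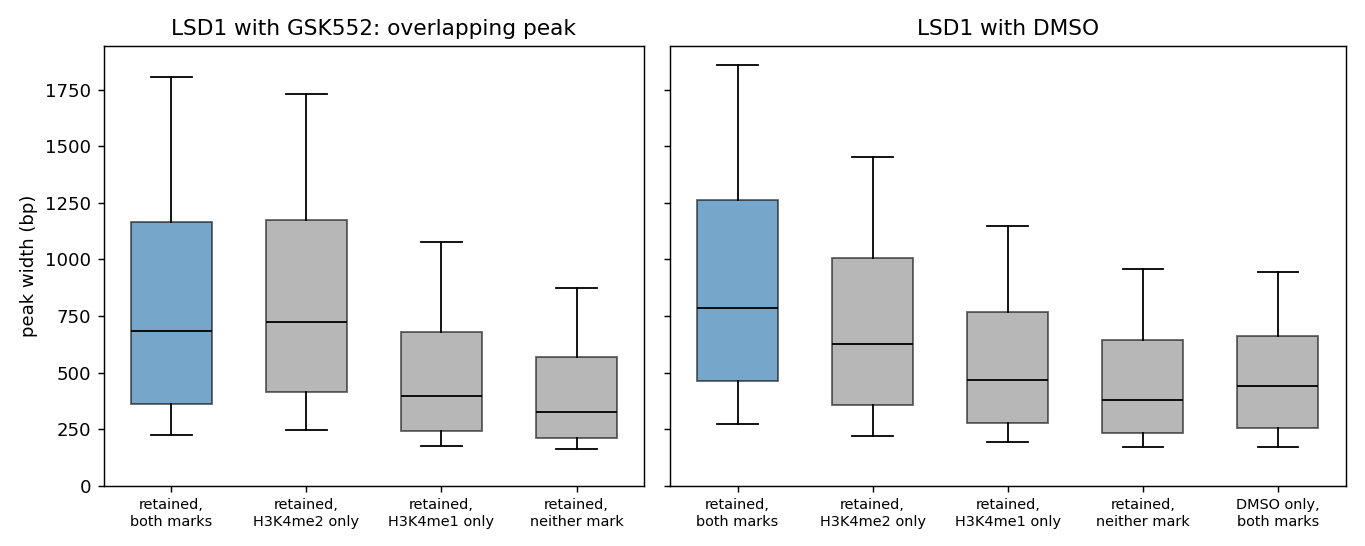
Width of LSD1 peaks in bp by class, for the strongest overlapping inhibitor (GSK552) peak at left and the DMSO peak at right; boxes show quartiles, lines medians and whiskers the 10th and 90th percentiles over peaks of 1 library. Retained both-mark sites (blue) had the highest median with DMSO, 787 bp, while with inhibitor their 685 bp lay below the 725 bp of retained peaks on H3K4me2 alone.

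Fold and −log10 q come from the authors' caller, list by list, and are set side by side without a ratio between lists. At the retained both-mark sites the median LSD1 fold was 4.17 with inhibitor and 3.83 with DMSO, and the median −log10 q was 3.73 with inhibitor and 2.57 with DMSO. The whole lists had a median −log10 q of 2.88 with inhibitor and 1.95 with DMSO, so both libraries ranked these sites above their own middle. The rule asked for a peak in both lists, and stronger peaks were retained more often, so this follows in part from the rule. Within the DMSO list, the median rank of the sites was at 30.9% of the list from the top (30.1 to 31.6%). Retained peaks with H3K4me1 alone were close, at 32.4%, while those with H3K4me2 alone stood further down, at 47.9%. Retained peaks on neither mark were at 37.9%, and both-mark peaks not found with inhibitor at 68.0%.

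The 2 marks under the retained both-mark sites differed in opposite ways from those at sites with 1 mark. The strongest H3K4me2 interval under a site had a median fold of 8.05 (8.02 to 8.10), below the 11.6 (11.4 to 11.7) of retained peaks on H3K4me2 alone. The strongest H3K4me1 interval had a median fold of 7.55 (7.48 to 7.65), above the 5.25 (5.21 to 5.32) of retained peaks on H3K4me1 alone. Widths followed the same pattern, with 916 bp against 1246 bp for H3K4me2 and 1260 bp against 522 bp for H3K4me1. In rank, the H3K4me1 interval of a median site stood in the top 13.0% of its list and the H3K4me2 interval in the top 30.9%. Both-mark peaks that were not found with inhibitor had medians of 7.04 for H3K4me2 and 6.95 for H3K4me1.

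**Figure D2:**
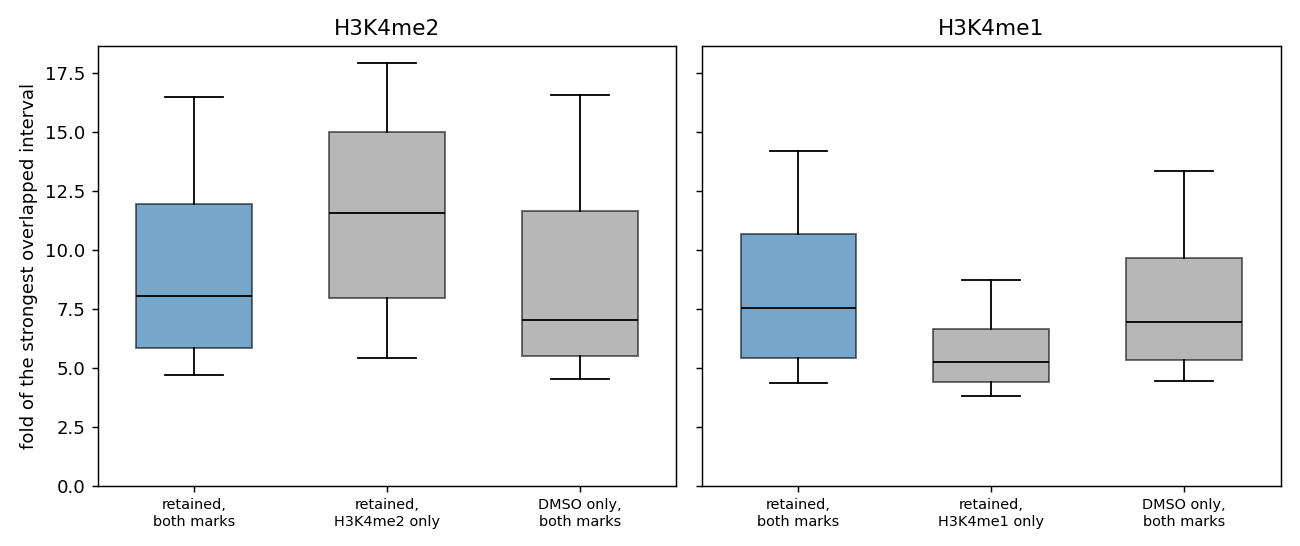
Fold enrichment of the strongest H3K4me2 (left) and H3K4me1 (right) interval under LSD1 peaks of each class; boxes show quartiles, lines medians and whiskers the 10th and 90th percentiles over peaks of 1 library. Under retained both-mark sites (blue) the H3K4me2 median of 8.05 was below the 11.6 of sites with H3K4me2 alone, and the H3K4me1 median of 7.55 was above the 5.25 of sites with H3K4me1 alone.

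The marks at these sites were also compared with the same marks away from LSD1. Intervals under the sites were counted whether or not they themselves overlapped the other mark, which the intervals away from LSD1 had to do. The 15583 H3K4me2 intervals under the sites had a median fold of 7.02 and a median width of 661 bp, and 51.1% of them had 2 or more summits. The 24495 H3K4me2 intervals that overlapped H3K4me1 but no LSD1 peak of either library had a median fold of 5.27, a width of 293 bp and 2 or more summits in 20.5% of cases. For H3K4me1 the medians were 6.65 and 968 bp at the 14641 intervals under the sites, against 5.22 and 477 bp at the 22788 intervals with H3K4me2 and no LSD1 peak. Wide intervals are met by an overlap rule more often, and each interval took the highest fold of its summits. These widths, folds and summit shares are thus a description.

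The share of retained both-mark sites with mark summits on both sides of the LSD1 centre depended on the distance allowed. H3K4me2 summits lay on both sides within 1 kb at 67.4% of sites (66.5 to 68.2%), and H3K4me1 summits did so at 67.2% (66.3 to 68.0%). Within 500 bp the shares were 50.4% for H3K4me2 and 37.0% for H3K4me1. For both-mark peaks not found with inhibitor the shares within 1 kb were 54.0% and 62.8%, which is 13.4 points (11.4 to 15.4) lower for H3K4me2 and 4.33 points (2.40 to 6.29) lower for H3K4me1. The H3K4me1 share was 45.4% at retained peaks with H3K4me1 alone, and the H3K4me2 share was 70.4% at retained peaks with H3K4me2 alone. Against both-mark peaks not found with inhibitor, the retained sites had the higher share for both marks in each of 5 width classes. For H3K4me2 it was 60.03% against 50.8% below 300 bp and 73.2% against 59.4% at 1200 bp and above. For H3K4me1 it was 72.8% against 63.3% and 59.6% against 51.1% in the same 2 classes. The differences of 13.4 and 4.33 points were not matched for width, and none of these comparisons was matched for LSD1 score. Retained sites had the higher median −log10 q with DMSO in each width class, with 2.36 against 1.83 below 300 bp. Among retained sites alone, the H3K4me1 share was 62.2% in the weakest and 74.3% in the strongest decile of sites by DMSO score. The H3K4me2 share was 66.2% and 66.9% in the same 2 deciles.

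The nearest H3K4me2 summit lay a median of 134 bp (131 to 137) from the LSD1 centre, and the nearest H3K4me1 summit 191 bp (187 to 195). The midpoints of the 2 LSD1 peaks of a site were themselves a median of 182 bp apart. H3K4me2 was the nearer of the 2 marks at 60.8% of sites, against 54.1% of both-mark peaks not found with inhibitor, a difference of 6.66 points (4.65 to 8.67). Counted in 100 bp bins on either side of the centre, H3K4me2 summits were densest at 100 to 200 bp, with 46.1 summits per 100 sites, and fell to 22.5 at 900 to 1000 bp. H3K4me1 summits were densest at 300 to 400 bp, with 36.8 per 100 sites, against 32.7 in the innermost 100 bp and 30.5 at 900 to 1000 bp. At both-mark peaks not found with inhibitor the innermost bin held 38.4 H3K4me1 summits per 100 peaks, and the count at 300 to 400 bp was 33.2. The 2 classes had median widths of 439 bp without and 787 bp with an inhibitor peak. These comparisons were not matched for width or for LSD1 score. Summits lay slightly to the lower coordinate of their interval, a median of 19 bp for H3K4me2 and 26 bp for H3K4me1 in intervals with 1 summit, which is why distances were taken without sign.

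**Figure D3:**
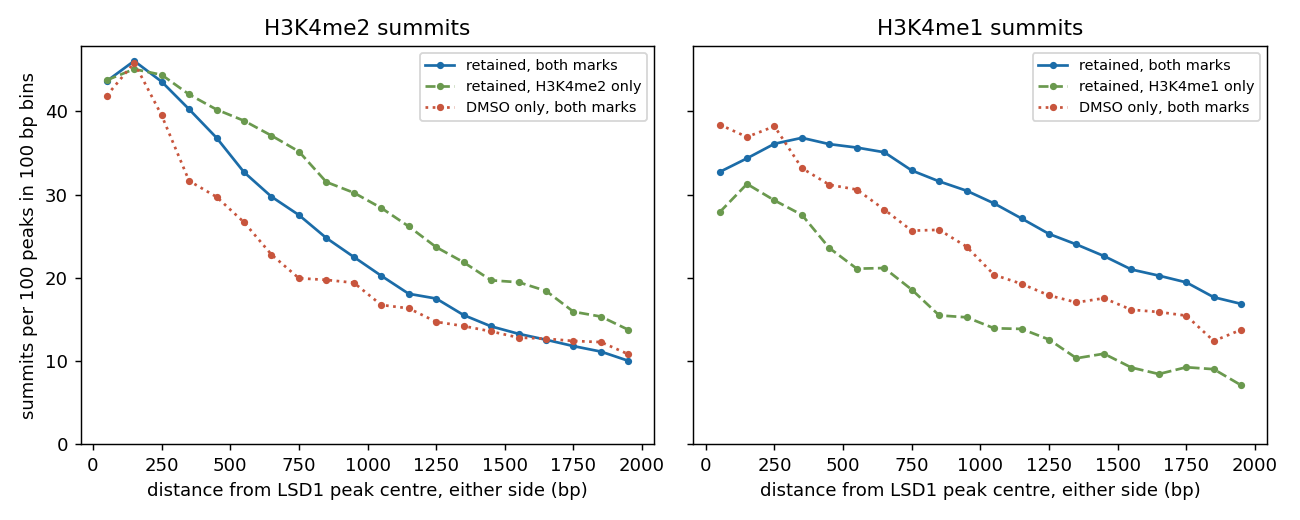
Summits of H3K4me2 (left) and H3K4me1 (right) per 100 LSD1 peaks with DMSO, in 100 bp bins of distance from the LSD1 peak centre, both sides added. At retained both-mark sites (blue) H3K4me2 summits were densest at 100 to 200 bp (46.1 per 100 sites) and H3K4me1 summits at 300 to 400 bp (36.8 per 100 sites).

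The position of the LSD1 centre divided the sites into 4 kinds. The centre lay inside both marks at 5830 sites (51.3%), inside H3K4me2 but not H3K4me1 at 2364 (20.8%), inside H3K4me1 but not H3K4me2 at 1650 (14.5%) and inside neither at 1526 (13.4%). Sites centred in H3K4me2 with H3K4me1 to the side had the strongest H3K4me2, with a median fold of 11.7 over 1496 bp, and a weaker H3K4me1 of 5.84 over 651 bp. The H3K4me2 fold was close to the 11.6 of retained peaks on H3K4me2 alone, whose H3K4me2 intervals had a median of 1246 bp. Sites centred in H3K4me1 with H3K4me2 to the side had a median H3K4me1 fold of 7.92 over 1468 bp and an H3K4me2 fold of 5.81 over 367 bp. Sites centred in both had medians of 8.54 for H3K4me2 and 8.73 for H3K4me1.

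Sites whose centre lay in neither mark had the strongest LSD1 of the 4 kinds. Their median LSD1 fold was 4.72 with inhibitor and 4.12 with DMSO, and their median −log10 q was 4.82 with inhibitor and 3.06 with DMSO. At sites centred in both marks the −log10 q was 3.53 with inhibitor and 2.49 with DMSO. A mark interval stood on each side of the centre at 1000 of the 1526 sites (65.5%, 63.1 to 67.9%), and at the other 34.5% both marks lay on the same side. Of the both-mark peaks not found with inhibitor that were centred in neither mark, 48.8% (42.6 to 55.0%) had a mark on each side. Centres in neither mark were less frequent among both-mark peaks not found with inhibitor, at 8.32%, a difference of 5.10 points (3.89 to 6.24). In the 3 width classes below 800 bp the retained sites had the higher share. In the other 2 classes they had the lower one. It was 12.4% of retained sites against 12.8% at 800 to 1200 bp. At 1200 bp and above it was 14.5% against 19.5%, where only 133 peaks were not found with inhibitor. LSD1 score was not matched in these comparisons. The median −log10 q with DMSO was 2.57 at retained both-mark sites and 1.59 at both-mark peaks not found with inhibitor. In the weakest and second decile of retained sites by DMSO score, the median −log10 q was 1.31 and 1.57. Centres in neither mark made up 8.27% and 9.59% of these 2 deciles.

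Centres in neither mark were more frequent at sites of higher LSD1 score. The sites were put in deciles of their own by DMSO score, with 1137 in each. The share centred in H3K4me2 was 78.6% in the weakest and 58.8% in the strongest site decile, and the share centred in H3K4me1 was 69.5% and 60.7%. Centres in neither mark were at 8.27% (6.80 to 10.0%) of the weakest and 23.4% (21.0 to 25.9%) of the strongest decile. The median H3K4me2 fold was 8.31 in the weakest decile, 8.72 in the second and 7.03 in the strongest, while the median H3K4me1 fold was 6.89 in the weakest and 8.31 in the strongest. The median width was 553 bp in the weakest and 950 bp in the strongest decile. Within each of the 5 width classes, centres in neither mark were more frequent in the 5 upper site deciles than in the 5 lower ones, with 20.2% against 9.57% at 500 to 800 bp. The share centred in H3K4me2 and the median H3K4me2 fold were lower in the upper site deciles in each width class. The share centred in H3K4me1 was lower in the upper site deciles below 800 bp only, and above that it was higher, with 66.4% against 63.8% at 800 to 1200 bp and 61.2% against 53.8% at 1200 bp and above. The median H3K4me1 fold was higher in the upper site deciles in 4 width classes and lower below 300 bp, with 6.98 against 7.20.

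The inhibitor library, with its own peaks and ranks, gave a like order. Its peaks were taken by overlap with these same sites and read against the same marks, so this is not separate support. The 11774 inhibitor peaks that overlapped these sites were centred in H3K4me2 in 68.9%, in H3K4me1 in 60.3% and in neither in 16.8% of cases. In the weakest decile by inhibitor score 10.53% (8.90 to 12.4%) were centred in neither mark, and in the strongest decile 29.7% (27.2 to 32.4%). The share centred in H3K4me2 was 75.5% in the weakest and 52.2% in the strongest decile. H3K4me2 summits flanked these inhibitor peaks on both sides in 67.3% of cases, and H3K4me1 summits in 66.1%.

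**Figure D4:**
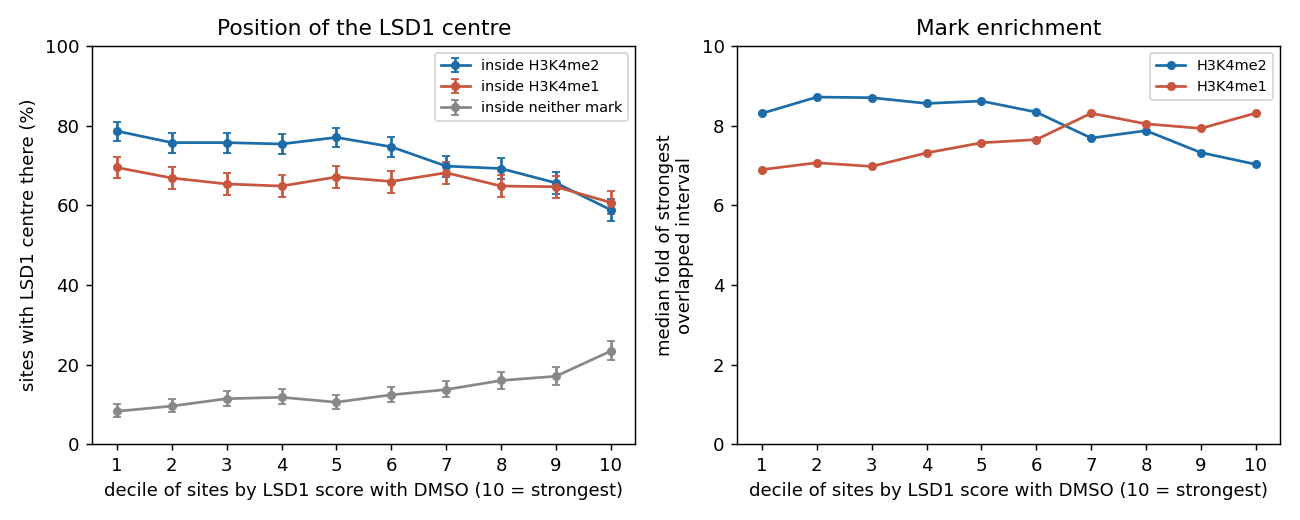
Retained both-mark sites in deciles by LSD1 score with DMSO, 1137 sites each. Left, share of sites whose LSD1 centre lay inside H3K4me2, inside H3K4me1 or inside neither, with 95% Wilson intervals; right, median fold of the strongest overlapped interval of each mark. Centres in neither mark made up 8.27% of the weakest and 23.4% of the strongest decile. The H3K4me2 median was 8.31 in the weakest and 7.03 in the strongest decile, and the H3K4me1 median 6.89 and 8.31.

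The strongest sites show how far these arrangements vary. The site at chromosome 8, 61704927 to 61705831, had the highest LSD1 score with DMSO, yet its marks were weak, with a fold of 4.39 for H3K4me2 and 5.77 for H3K4me1. Its nearest summits lay 324 and 357 bp from the LSD1 centre. At chromosome 18, 66094437 to 66095768, LSD1 had a fold of 12.7 over 599 bp with inhibitor and 12.4 over 1332 bp with DMSO. Its centre lay in neither mark, and it overlapped a single 348 bp H3K4me2 and a single 333 bp H3K4me1 interval, at folds of 5.46 and 5.50 and with summits 596 and 692 bp from the centre. Both sites thus joined LSD1 of high rank with mark folds below the medians of all retained both-mark sites.

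Other leading sites overlapped stronger marks. At chromosome 13, 59983662 to 59984607, LSD1 had a fold of 5.86 with inhibitor and 10.9 with DMSO, beside an H3K4me1 fold of 17.4 and an H3K4me2 fold of 8.20. At chromosome 2, 68920709 to 68922076, LSD1 had a fold of 10.2 with inhibitor and 10.97 with DMSO, over 3 H3K4me2 intervals of up to 10.9-fold. Its nearest H3K4me1 summit lay 14 bp from the centre. At chromosome 8, 97339363 to 97340440, LSD1 ranked 2916 with inhibitor (fold 4.55) and 14 with DMSO (fold 10.53), with marks of 11.5-fold and 13.2-fold. At chromosome 2, 2880096 to 2881855, the centre lay in none of the 3 H3K4me2 and 3 H3K4me1 intervals overlapped, and the LSD1 fold was 6.59 with inhibitor and 10.47 with DMSO. At chromosome 1, 177282689 to 177283666, a 2707 bp inhibitor peak overlapped the 978 bp DMSO peak, as did an 8896 bp H3K4me1 interval. Over the 10 sites of highest DMSO score, the inhibitor fold was lowest at 4.55, with a median of 6.77 and a highest of 12.7, and the DMSO fold was lowest at 7.57, with a median of 10.95 and a highest of 16.6. These 10 were chosen for their DMSO score, so a lower value in the other library follows in part from the choice.

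The 10 sites with the smallest mean of both rank percents had a median H3K4me2 fold of 5.97 and a median H3K4me1 fold of 5.77. Of these, 3 had an H3K4me2 fold above the 8.05 of all sites and 4 an H3K4me1 fold above the 7.55 of all sites. The site at chromosome 4, 164694618 to 164695950, had an LSD1 fold of 10.7 with inhibitor and 9.72 with DMSO, with an H3K4me2 fold of 4.22 over 177 bp and an H3K4me1 fold of 3.67 over 214 bp, whose summits lay 548 and 620 bp from the centre. The site at chromosome 3, 130624700 to 130626088, was overlapped by 2 inhibitor peaks, the stronger with a fold of 12.47, against 10.3 with DMSO. At chromosome 2, 22906005 to 22907332, LSD1 ranked 17 with inhibitor and 113 with DMSO, and the nearest H3K4me1 summit was 11 bp from the centre. In both sets of 10, 6 centres lay inside both marks and 3 inside neither. The 2 sets share sites, so these counts are not independent. Among the shared ones are chromosome 8, 61704927 to 61705831, and chromosome 18, 66094437 to 66095768.

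Part of chromosome 2 and of chromosome 6 stood apart in all 4 lists. In 6 stretches the background implied by fold and p-value was more than 6 times the list median over runs of at least 10 peaks. The longest ran from 15400551 to 16411346 on chromosome 2, and held 32 of the 44 retained both-mark sites in such stretches. Its peaks had a median background, in multiples of the list's median, of 18.8 in the inhibitor list, 13.5 in the LSD1 list with DMSO, 20.2 in H3K4me2 and 19.8 in H3K4me1. The 44 sites were 0.387% of all retained both-mark sites, while 0.292% of all LSD1 peaks with DMSO lay in such stretches. Their median LSD1 fold was 2.12 with inhibitor and 2.07 with DMSO, against 4.18 and 3.83 at the other sites. Their median −log10 q with DMSO, which the score follows, was higher, at 6.15 against 2.57. Of the 44 sites, 19 were among the 1000 highest-scoring LSD1 peaks with DMSO, as were 507 of the other 11326 sites. Of the 5 widest sites, 3 lay in these stretches, led by a 10690 bp peak at chromosome 2, 15514913 to 15525602. It had a fold of 1.85 with inhibitor and 2.02 with DMSO. The other 2 were at chromosome 11, 133936094 to 133943488, over an H3K4me2 fold of 23.9, and at chromosome 3, 156819198 to 156825410, over 9 H3K4me2 intervals. The site at chromosome 2, 15827986 to 15828529, ranked 3 by the mean of both rank percents, also lay in a raised stretch, with a background 16.4 times the median. The part of this background in the values of the 44 sites was not tested.

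Of the retained both-mark sites, 7274 had no other such site within 12500 bp. Another such site stood within 12500 bp at 36.0% of them (35.1 to 36.9%), against 15.7% of retained peaks on H3K4me2 alone, 10.6% on H3K4me1 alone and 14.5% on neither mark, each counted within its own class. These classes hold fewer peaks, so by construction a neighbour of the same class is less likely. Any other LSD1 peak with DMSO stood within 12500 bp of 64.9% of the sites, against 54.7% of all LSD1 peaks with DMSO, 49.3% of retained peaks on H3K4me2 alone and 45.7% of those on neither mark. Both-mark peaks not found with inhibitor had 66.7%, and the difference of −1.79 points (−3.69 to 0.137) has an interval that includes 0. When sites separated by 12500 bp or less were joined, they formed 8961 clusters, of which 59 held 5 or more.

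The 2 largest clusters held 41 H3K4me2 and 24 H3K4me1 intervals on chromosome 20 and 34 and 21 on chromosome 17. At chromosome 20, 56002429 to 56074913, 16 sites lay in 72.5 kb and covered 39.9% of it. The sites were from 156 to 4783 bp wide, their LSD1 fold had a median of 4.28 with inhibitor and 3.79 with DMSO, and the median fold of their marks was 20.5 for H3K4me1 and 8.91 for H3K4me2. At chromosome 17, 70114747 to 70179597, 12 sites lay in 64.9 kb, 11 of them centred inside both marks, with median folds of 18.1 for H3K4me1 and 9.03 for H3K4me2. Among the next clusters, each with 8 sites, the one at chromosome 1, 155022980 to 155058805, had a higher median H3K4me2 fold, 22.98, beside an H3K4me1 fold of 14.3 and LSD1 folds of 3.12 with inhibitor and 2.77 with DMSO. The clusters at chromosome 11, 111112495 to 111145225, and 117559109 to 117602975, had median H3K4me1 folds of 14.5 and 16.3. Another 3 clusters also held 8 sites. Over all 8 of these clusters the median H3K4me1 fold was between 14.3 and 20.5, against 7.55 over all retained both-mark sites. Sites of a cluster can share an H3K4me1 interval, as at chromosome 12, 110145109 to 110172537, with 8 sites and 7 such intervals. The median LSD1 fold of the 8 clusters was between 3.12 and 4.35 with inhibitor, against 4.17 over all sites. With DMSO it was between 2.77 and 3.88, against 3.83.

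Chromosomes 1 to 22 and X differed in the share of LSD1 peaks that were retained both-mark sites, while Y, with 17 LSD1 peaks and 0 such sites, was left aside. The share was highest on chromosome 11, at 33.1% (31.4 to 34.8%; 948 sites), followed by chromosome 21 at 30.3%, 20 at 30.2% and 13 at 29.7%. Apart from Y it was lowest on chromosome 19, at 14.7% (13.2 to 16.4%; 281 sites), followed by chromosome 22 at 17.1%, X at 18.7% and 16 at 19.8%. Retained peaks with H3K4me2 alone made up 18.8% of LSD1 peaks on chromosome 19 and 12.03% on chromosome 11, while chromosome 22 was low in both classes, at 11.3% for H3K4me2 alone. On chromosome 19 the retained peaks with H3K4me2 alone, 359, outnumbered the 281 both-mark sites.

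**Figure D5:**
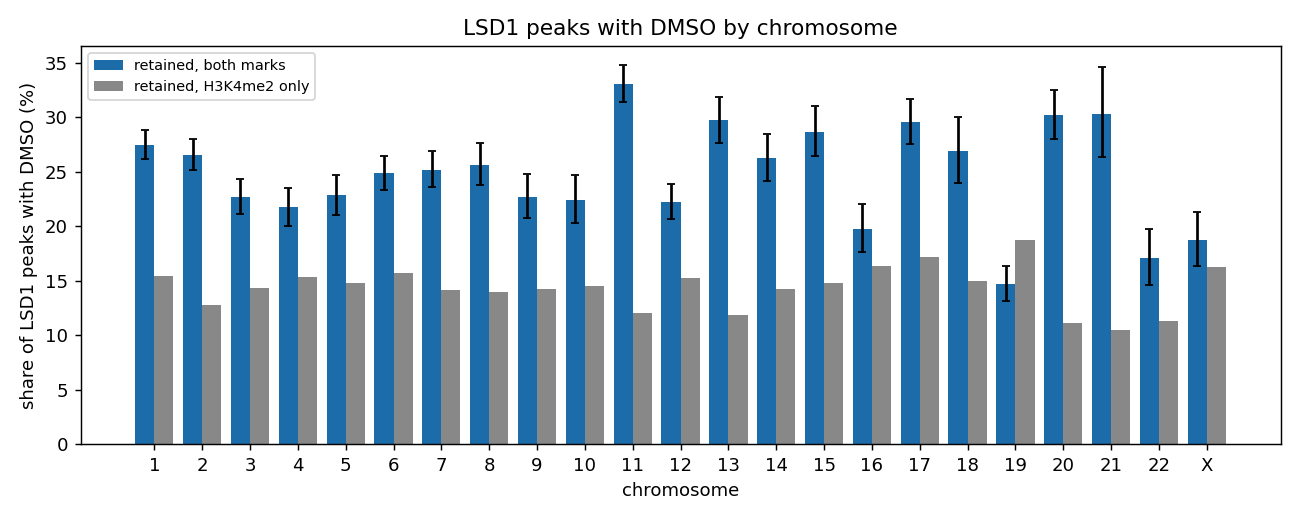
Share of the LSD1 peaks with DMSO on chromosomes 1 to 22 and X that were retained both-mark sites (blue, with 95% Wilson intervals) or retained peaks with H3K4me2 alone (grey). Of the chromosomes plotted, 11 had the highest share of both-mark sites, 33.1%, and 19 the lowest, 14.7%, with more retained peaks on H3K4me2 alone (18.8%).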

How the data were processed

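The submitters' processing notes name BWA, Picard, MACS2 2.0 and hg19. The sources used here do not say which input served as control, how duplicates were treated or how deep each library was. Each deposited peak has a score, which in nearly all rows equals 10 times −log10 q without decimals, a fold ratio over background, and −log10 p and −log10 q, all as the authors' caller gave them. Summit positions come from the deposited offsets in the histone lists. Histone rows were reduced to distinct intervals with their highest values (81619 for H3K4me2, 94689 for H3K4me1).

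Overlaps, distances and clusters were computed with Python 3.11.15, pandas 2.3.3, numpy 2.4.6 and scipy 1.17.1, and the code was tested on simulated data. Where several intervals overlapped a site, the one with the highest −log10 q gave its values. Shares carry Wilson intervals, differences of shares Newcombe intervals and medians binomial order-statistic intervals. The background of a peak is the one at which its fold, with a pseudocount of 1, has its Poisson p-value.

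The sites, classes and measures were chosen with earlier results of these data known. Regions were named by rule: the 10 highest DMSO scores, the 10 smallest mean rank percents, the 5 widest and the 5 largest clusters, of which the text gives the leading ones. The gene and promoter tables given for this work are on GRCh38, so genes, promoters, sequences and motifs at the sites were not analysed here.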

Additional observations from a re-analysis of the deposited data

How the results depend on the processing

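No paired analysis was possible because, with single libraries, no result here comes from a test. The planned promoter, gene list and sequence alternatives were not run, since the annotation used is on another build. With equal numbers of LSD1 peaks, on chromosomes 1 to 22 only, and without the raised stretches (chosen after the data were seen), 8 of 8 values stayed within their counting intervals or within 1.5 times the count. With depth unknown, a site without a listed peak may still hold LSD1 below the caller's threshold.

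The values below are given in the order number of sites, median width, median distance to the H3K4me2 and H3K4me1 summit, share flanked by H3K4me1 and by H3K4me2 summits, share with another site within 12500 bp, and share with 2 or more inhibitor peaks. With a reciprocal overlap of 50% they were 536, 1031 bp, 93.5 bp, 115 bp, 70.7%, 69.8%, 1.49% and 0%. With the DMSO centre inside the other interval they were 4118, 675.5 bp, 95 bp, 121 bp, 77.95%, 73.4%, 22.997% and 0%; these rules allow few or no multiple partners by construction. With the 50% highest-scoring peaks of each list they were 4031, 1001 bp, 147 bp, 200 bp, 68.7%, 58.9%, 21.7% and 3.77%. With LSD1 −log10 q of 2 or more they were 7183, 869 bp, 142 bp, 196 bp, 70.5%, 67.8%, 25.4% and 4.22%. With at least 100 bp shared, 9748 sites remained, at 863.5 bp, 126 bp, 182 bp, 69.1%, 69.3% and 33.7%, and 4.94% had 2 or more inhibitor peaks. Within 500 bp, flanking shares were 37.0% for H3K4me1 and 50.4% for H3K4me2. Another site stood within 5 kb at 23.02% and within 50 kb at 61.8%. The cause of these changes was not tested beyond what is said here.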

Other observations

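Among LSD1 peaks with both marks, the share found again with inhibitor ran from 65.7% on chromosome 22 and 67.8% on chromosome 10 to 88.3% on chromosome 13, around 79.4% in all. Across the 11370 retained both-mark sites the −log10 q of LSD1 with inhibitor and with DMSO had a Spearman rho of 0.57, over points that share a place and an antibody target. The −log10 q of LSD1 with DMSO had a rho of −0.12 with the H3K4me2 fold and 0.11 with the H3K4me1 fold, both weak, and the folds of the 2 marks had a rho of 0.080. The sites on an H3K4me2 interval of 4000 bp or more numbered 411.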
